A study of Bos taurus with 6 samples.

Results

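Remote H3K4me3 sites are places where this mark stood alone in a long stretch of an autosome, far from any other H3K4me3. They were studied in bovine embryonic stem cells (bESCs) by ChIP-seq, in which antibody-bound chromatin is sequenced. The cells were primed pluripotent cells from blastocysts, at passage 12, held on mouse embryonic fibroblasts in a growth medium with human FGF2 and the WNT inhibitor IWR1, and the fibroblasts were taken away with magnetic beads before chromatin was made. Lines A and B, derived independently, each gave 1 H3K4me3 and 1 H3K27me3 library, with no treatment or genotype set against another (n = 2 lines per mark). The sites were chosen by H3K4me3 positions alone. Each was a line A summit on chromosomes 1 to 29 with a line B summit within 1 kb, and with no further H3K4me3 summit of either line more than 5 kb and up to 250 kb away on either side. Summits within 5 kb counted as 1 site, represented by its highest line A score. This gave 720 remote sites of 15640 shared autosomal sites (4.60%), leaving 14920 other shared sites.

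H3K4me3 is placed by SET1 and MLL methyltransferases, mostly at CpG-rich promoters, and marks active or poised start sites. H3K27me3 is placed by Polycomb repressive complex 2 and accompanies silencing. In pluripotent cells many promoters of developmental regulators carry both marks, a state called bivalent, and such regulators often lie in gene-poor stretches of mammalian genomes. Genes and sequences at the sites were not analysed here, because no annotation or sequence of UMD3.1, the assembly of the lists, was used. All positions below are in UMD3.1.

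The lists hold 1-base summits and a peak score on the −log10 scale of the peak caller's p or q values. They hold no read counts, so the depth of each library is unknown. The marks come from separate libraries of many cells, so nearby summits of both need not lie on the same molecule. A score moves with depth, and scores of different libraries were set side by side only as values. H3K4me3 had 20908 and 21840 summits in lines A and B, and H3K27me3 25225 and 20684. With 1 library per mark and line no p-value is given, since an exact paired permutation test over 2 lines cannot go below a two-sided p of 0.5. Intervals below are 95% Wilson intervals for shares and Newcombe intervals for differences of shares. Differences with the other sites weighted by H3K4me3 score have 95% intervals by normal approximation instead. All these intervals cover counting error over sites, and sites are not replicates.

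By the rule, the stretches around the remote sites were long. The distance to the nearer neighbouring H3K4me3 summit was at least 250.2 kb, with a median of 367 kb, and 218 sites had more than 500 kb to every neighbour they had, 52 more than 1 Mb and 9 more than 2 Mb. For the other shared sites the median was 24.6 kb. At 9 remote sites no H3K4me3 lay further to the left on the chromosome and at 3 none to the right, so these distances refer to 1 side there, whatever the length left to the chromosome end. The members nearest the limit, on chromosome 14 at 33480921, chromosome 13 at 11543523 and chromosome 7 at 24071716, had neighbours at 250.234, 250.237 and 250.414 kb. The sites just outside it, on chromosome 28 at 6492766, chromosome 4 at 112468994 and chromosome 5 at 81992237, had neighbours at 249.875, 249.303 and 249.15 kb.

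Remote sites were found on every autosome. Chromosome 1 had the most, 53. As a share of the shared sites of a chromosome they were most frequent on chromosome 20 (31 of 254, 12.2%), chromosome 6 (44 of 445, 9.89%) and chromosome 14 (35 of 388, 9.02%). They were least frequent on the chromosomes densest in H3K4me3, with 8 of 910 (0.879%) on chromosome 19 and 9 of 922 (0.976%) on chromosome 18. This distribution follows from the rule, which asks for sparse stretches.

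Remote did not mean weak. In line A the H3K4me3 score of the remote sites ran from 3.32 to 1473 with a median of 44.7, against 48.7 at the other sites. In line B it ran from 2.01 to 5970 with a median of 73.0, against 81.5. Within their own lists the remote sites lay at a median percentile of 57.5 in line A and 58.3 for line B, against 60.8 and 62.2 for the other sites. The middle of the range was overfilled: of 10 equal classes by line A score over all shared sites, the fifth held 111 remote sites and the highest 38. A single H3K4me3 summit within 5 kb in both lines was seen at 541 remote sites (75.1%) and at 77.2% of the others.

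The lines ranked the remote sites about as alike as they ranked the other sites. Their summits lay within 1 kb of each other by the rule, at remote and other sites alike. The summits of lines A and B lay a median of 66 bases apart, against 51 bases at the other sites, and 619 of the 720 (86.0%) lay within 250 bases, against 90.2%. The percentiles of a site in lines A and B differed by a median of 7.27 points, and by more than 20 points at 52 sites (7.22%), against 8.34% of the others. The plot of H3K4me3 scores by line shows this spread, with 3 sites standing far above the rest in both lines.

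**Figure D1:**
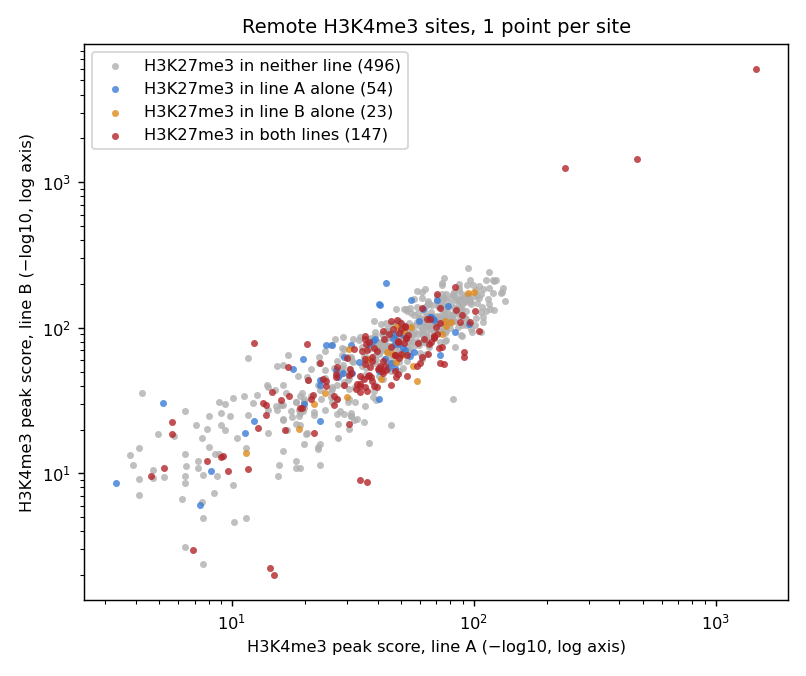
H3K4me3 peak score of each of the 720 remote sites in line A (x axis) and line B (y axis), both as −log10 values on log axes, coloured by the lines in which an H3K27me3 summit lay within 1 kb. Most sites form 1 diagonal band, the 3 highest sites all have H3K27me3 in both lines, and the 496 sites without it reach over nearly the whole band.

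The strongest remote sites, ranked by their mean H3K4me3 percentile over lines, included 3 far above the bulk. The site on chromosome 13 at 1250771 scored 1473 in line A and 5970 for line B, and its nearest H3K27me3 summits lay 2 and 1 bases away, with scores of 4729 and 272. The site on chromosome 3 at 25027067 scored 473 and 1441, with H3K27me3 at 85 and 74 bases scoring 915 and 46.8. The site on chromosome 29 at 23771425 scored 239 and 1254, with H3K27me3 at 182 bases in both lines scoring 1985 and 181. At all 3 the H3K4me3 score was higher in line B and the H3K27me3 score higher in line A. The median H3K4me3 score of all remote sites was also higher in line B, at 73.0 against 44.7. The next in rank carried H3K4me3 alone. The site on chromosome 5 at 90960371 scored 116 and 240, with its nearest H3K27me3 672 and 673 kb away, and the site on chromosome 22 at 35067877 scored 124 and 212, with none nearer than 2033 kb in either line.

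The weakest remote sites were near the floor of the lists. On chromosome 15 at 50445341 the H3K4me3 scores were 6.40 and 3.11, and on chromosome 24 at 14619923 they were 4.14 and 7.10, with H3K27me3 292 kb and 83.7 kb away in both lines. On chromosome 5 at 53756474 they were 6.90 and 2.96, inside a block with 6 H3K27me3 summits within 5 kb in each line.

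H3K27me3, which the rule did not use, lay at a minority of the remote sites. In line A 201 of 720 had an H3K27me3 summit within 1 kb, 27.9% (interval 24.8% to 31.3%), where 22.5% of all shared autosomal sites did. In line B it was 170 of 720, 23.6% (20.7% to 26.8%), where 18.3% of all did. The other shared sites had 22.2% and 18.0%, so the remote sites were 5.71 points higher in line A (interval of the difference 2.49 to 9.16) and 5.60 points higher for line B (2.58 to 8.90). Within 5 kb the shares were 33.6% and 29.2%, beside 27.7% and 22.7% of all shared sites. On single autosomes the share was higher at remote than at other sites on 21 of 29 in line A and on 24 of 29 for line B. Some autosomes held few remote sites. Of the 11 with 30 or more, the share was higher at remote sites on 8 in each line.

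The excess lay mostly among weak H3K27me3. With a summit above the median score of its list (9.31 in line A and 9.49 for line B) within 1 kb there were 100 remote sites in line A (13.9%), beside 13.6% of all shared sites, and 81 for line B (11.2%), beside 9.93%. These exceeded the other sites by 0.34 points (interval -2.06 to 3.11) and 1.38 points (-0.78 to 3.94). With only weaker summits there were 101 (14.0%) and 89 (12.4%), beside 8.90% and 8.34% of all, an excess over the other sites of 5.37 points (2.98 to 8.14) and 4.22 points (1.97 to 6.86). With a limit of 500 kb in place of 250 kb, which left 218 remote sites, the difference was 4.65 points for line A (-0.85 to 10.9) and 1.47 points for line B (-3.31 to 7.28), so neither interval lay above 0.

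Both lines had H3K27me3 at 147 remote sites (20.4%, 17.6% to 23.5%), where 15.9% of all shared sites did. Line A alone had it at 54 (7.50%), line B alone at 23 (3.19%) and neither at 496 (68.9%). Of the carriers of line A 73.1% were carriers in line B, against 70.7% among the other sites, and of those of line B 86.5% were carriers in line A, against 87.2%. The intervals of these shares overlap. H3K27me3 seen in 1 line was weak, with a median score of 5.00 at the 54 sites of line A alone and 5.32 at the 23 of line B alone, against 12.4 and 9.73 at the sites of both. At 11 of the 54 (20.4%) and 8 of the 23 (34.8%) the other line had H3K27me3 within 5 kb, against 24.3% and 46.1% elsewhere.

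The difference from other sites varied with the strength of H3K4me3. Shared sites were divided at the middle of their H3K4me3 score into the upper and lower 5 deciles, a division chosen after the decile values were seen, so that a difference between these classes was not tested independently of that choice. Among the upper deciles 67 of 320 remote sites (20.9%) had H3K27me3 in line A and 48 of 309 (15.5%) for line B, beside 11.1% and 7.85% of all shared sites there. They exceeded the other sites, at 10.7% and 7.54%, by 10.2 points (6.08 to 15.1) and 8.0 points (4.33 to 12.5). Among the lower deciles 134 of 400 (33.5%) and 122 of 411 (29.7%) had it, beside 33.8% and 28.7% of all. The differences there were -0.34 points (-4.92 to 4.54) and 1.06 points (-3.28 to 5.76). Within the lower deciles the differences went both ways, from -12.8 points in the first to 12.2 in the fourth for line A, and from -12.5 in the second to 12.3 in the third for line B. With H3K27me3 summits above the median of their list alone, the upper difference was 4.07 points for line A (1.19 to 7.88) and 1.53 points for line B (-0.49 to 4.62), and the lower difference -4.25 points (-7.75 to -0.16) and -0.35 points (-3.68 to 3.57).

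Decile by decile the curves crossed. In the lowest decile of H3K4me3 score 22.8% of the remote and 35.6% of the other sites had H3K27me3 in line A, and 21.3% and 29.7% for line B. The share of the other sites was highest in the second decile in both lines, at 39.1% and 32.3%. That of the remote sites was highest at 43.3% in the fourth decile of line A and 44.2% in the third of line B. From the fourth decile of line A and the third of line B onwards, every decile had a higher share at remote than at other sites, though the interval of the difference covered 0 in 1 of those 7 deciles in line A and in 5 of 8 for line B. With the other sites weighted to the deciles of the remote sites, the difference over all deciles was 4.70 points in line A (1.35 to 8.05) and 3.79 points for line B (0.62 to 6.96). With the line B summit required within 250 bases both intervals covered 0, at 3.44 points (-0.07 to 6.95) and 2.47 points (-0.82 to 5.76).

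**Figure D2:**
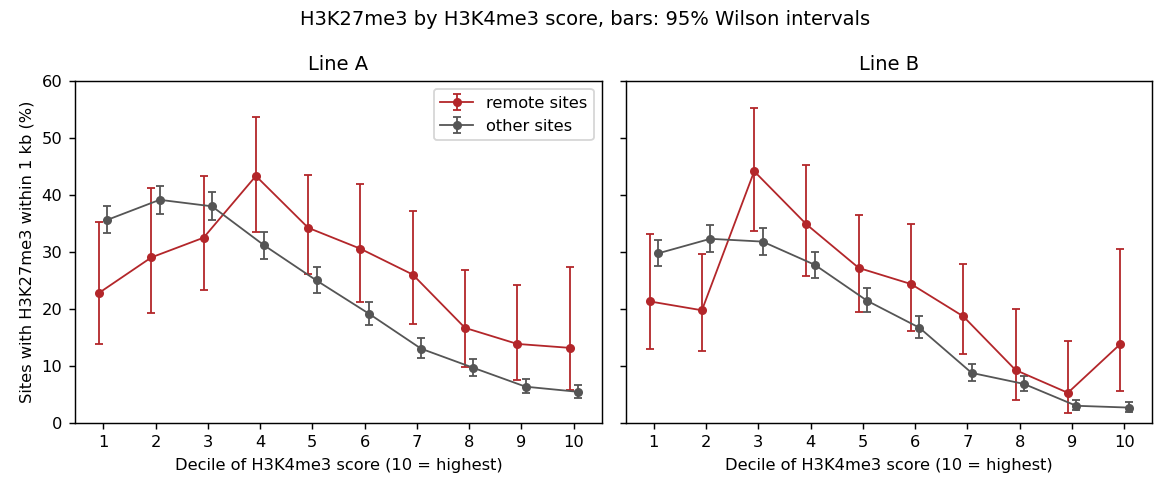
Percent of sites with an H3K27me3 summit within 1 kb (y axis) by decile of the H3K4me3 score of all shared autosomal sites in the same line (x axis), for remote (red) and other (grey) sites, with 95% Wilson intervals. The remote sites lie below the others in the lowest deciles and above them in the higher ones, peaking at 43.3% in line A and 44.2% for line B.

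Among strong sites the share with H3K27me3 was higher at each greater isolation from 25 kb up to 1 Mb. For line A the upper 5 deciles had H3K27me3 at 9.64% of sites with a neighbour 5 to 25 kb away, 9.25% at 25 to 50 kb, 11.9% at 50 to 100 kb, 15.3% at 100 to 250 kb, 20.7% at 250 to 500 kb and 25.8% at 500 to 1000 kb. Line B had 6.71%, 6.50%, 8.29%, 11.5%, 16.0% and 17.5% in the same classes. In both lines the intervals of each pair of adjacent classes overlap. Those of the classes at 25 to 50 kb and 250 to 500 kb do not. Beyond 1000 kb only 2 of 22 sites in line A and 1 of 21 for line B carried it, with intervals that reach 27.8% and 22.7%. Among the lower 5 deciles line B had the same order from 25 to 500 kb, with 24.2%, 28.2%, 29.5% and 32.9%, and then 22.3% at 500 to 1000 kb. Line A had 36.0% at 100 to 250 kb, its highest below 1000 kb, and 28.0% at 500 to 1000 kb.

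**Figure D3:**
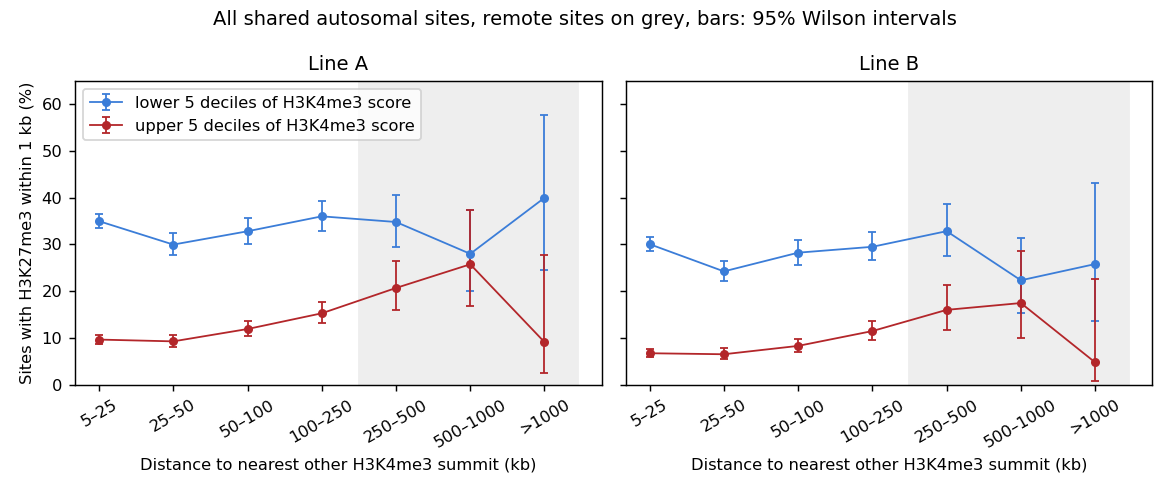
Percent of shared autosomal sites with an H3K27me3 summit within 1 kb (y axis) by distance in kb to the nearest other H3K4me3 summit (x axis), for the lower (blue) and upper (red) 5 deciles of H3K4me3 score in the same line, with 95% Wilson intervals; the grey area holds the remote sites. The red points of line A lie at 9.64% in the closest class and 25.8% at 500 to 1000 kb, while the blue points of both lines are lower at 500 to 1000 kb than at 250 to 500 kb.

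Where a remote site carried H3K27me3 its H3K4me3 was weaker, by a smaller margin than elsewhere. In line A the median H3K4me3 score was 40.1 with and 47.8 without H3K27me3 at remote sites, and 28.4 and 55.7 at the other sites. In line B the medians were 57.6 and 77.8 at remote sites, and 45.7 and 92.0 at the others. The H3K27me3 summits themselves were also weaker at remote sites, with a median score of 9.31 against 11.7 in line A and 8.98 against 10.2 for line B.

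Remote carriers had few H3K27me3 summits close by. A lone H3K27me3 summit within 5 kb was found at 114 of 201 carriers in line A (56.7%) and 117 of 170 for line B (68.8%), against 49.7% and 56.3% of the other carriers. Clusters of 4 or more lay at 13 (6.47%) and 9 (5.29%), against 13.0% and 10.0%. The median offset from the H3K4me3 summit was 153 bases in line A and 230.5 for line B, against 187 and 216 at the other carriers.

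Beyond the site itself the mark was scarce. No H3K27me3 summit lay 5 to 250 kb away at 141 of the 201 carriers in line A (70.1%) and at 138 of 170 for line B (81.2%), against 13.9% and 18.6% of the other carriers. Remote sites without H3K27me3 had such empty flanks too, at 77.8% in line A and 85.8% in line B. Neighbouring H3K4me3 sites often bear H3K27me3 and remote sites have no such neighbours by the rule, so these counts were repeated with H3K27me3 summits more than 5 kb from any H3K4me3. Then 71.6% and 81.8% of the remote carriers had none, against 47.0% and 62.2% of the others, with means of 1.02 and 0.841 such summits against 3.43 and 2.49. The counts by distance take in all H3K27me3 summits again. Around remote carriers of line A the number of H3K27me3 summits was 1.79 per site within 10 kb and 0.114 at 10 to 20 kb. In line B it was 1.60 and 0.106. Beyond 50 kb the median step of 10 kb held 0.0299 and 0.0206 summits per site, against 0.337 and 0.257 around the other carriers. Around the other carriers these steps can hold H3K27me3 of neighbouring H3K4me3 sites, which remote carriers lack by the rule.

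**Figure D4:**
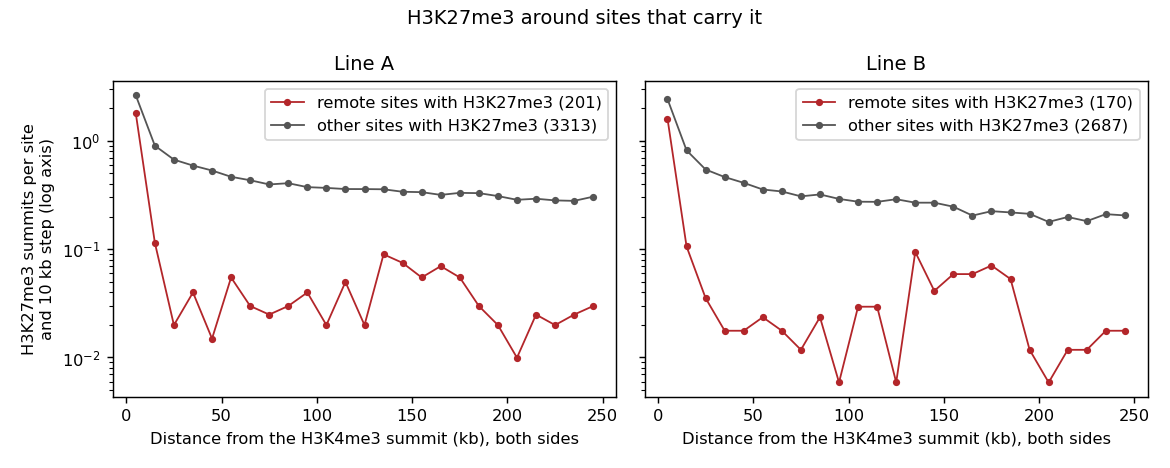
H3K27me3 summits per site and step of 10 kb (y axis, log) by distance from the H3K4me3 summit on both sides (x axis), around remote (red) and other (grey) sites with H3K27me3 within 1 kb, in each line. In line A the red curve drops from 1.79 within 10 kb to 0.114 at 10 to 20 kb, while the grey curve of line A is nowhere below 0.279 out to 250 kb. All H3K27me3 summits are counted, including those at neighbouring H3K4me3 sites, which only the other sites have within 250 kb.

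Many remote sites stood without any H3K27me3 around them. At 373 sites in line A (51.8%) and 438 for line B (60.8%) the nearest H3K27me3 summit was more than 250 kb away, against 14.6% and 22.5% of the other sites, and at 347 (48.2%) this held in both lines, against 12.9%. The median distance to H3K27me3 was 260 kb in line A and 348 kb for line B, against 47.2 and 76.9 kb. Distances were split into near and far: 5 to 25 kb held 1.53% of the remote sites in line A and 0.417% for line B, but 12.9% and 10.3% of the others. Within 25 kb as a whole the order turned in line A, with H3K27me3 at 35.1% of the remote and 40.4% of the other sites, a difference of -5.22 points (-8.71 to -1.57). In line B it lay at 29.6% and 32.7%, a difference of -3.08 points whose interval covered 0 (-6.39 to 0.43). The other sites can have further H3K4me3 sites within 25 kb, and the remote sites have none within 250 kb by the rule. Such neighbours often bear H3K27me3, so none of these distance contrasts beyond 5 kb is independent of the rule.

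**Figure D5:**
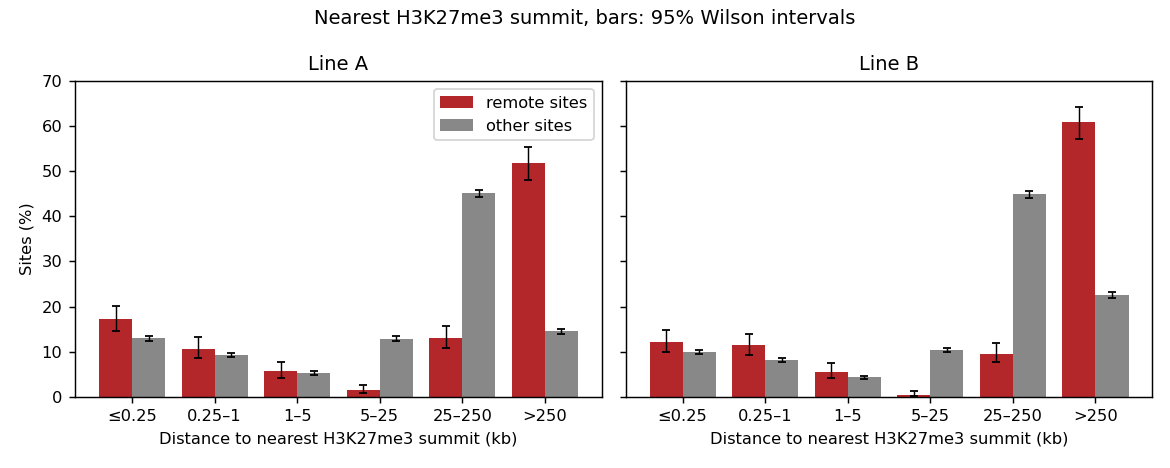
Percent of remote (red) and other (grey) sites (y axis) by distance in kb to the nearest H3K27me3 summit of the same line (x axis), with 95% Wilson intervals. Remote sites are slightly more frequent than the others up to 1 kb, nearly absent at 5 to 25 kb and most frequent beyond 250 kb, at 51.8% and 60.8%. All H3K27me3 summits are counted, including those at neighbouring H3K4me3 sites, which only the other sites have within 250 kb.

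The most isolated sites show these forms side by side. On chromosome 4 at 429313, the first H3K4me3 site of the chromosome, the next neighbour lay 4.07 Mb to the right. Its H3K4me3 scores were 20.5 and 43.6, with weak H3K27me3 at 2 and 941 bases (scores 6.49 and 6.83). On chromosome 6 at 51536296, with 3.71 and 4.67 Mb to its neighbours, the H3K4me3 scores were 31.3 and 59.2 and H3K27me3 lay 1783 and 2128 bases away, outside the 1 kb limit. On chromosome 12 at 5201001, with 3.07 and 5.30 Mb, they were 31.3 and 49.1, with H3K27me3 at 868 bases in line A and 1521 for line B. On chromosome 2 at 76308438, with 2.48 and 2.95 Mb, they were 30.5 and 44.8 and the nearest H3K27me3 was 742 and 886 kb away. On chromosome 10 at 98235412, with 4.27 and 2.28 Mb, they were 63.3 and 121, with H3K27me3 at 2737 and 2302 bases. In 4 of these 5 an H3K27me3 summit lay within 5 kb in each line. None of the 5 had any H3K27me3 at 5 to 250 kb. Among all remote sites 26.1% had H3K27me3 within 5 kb in both lines, beside 20.7% of the other sites. Such empty flanks were found at 75.7% of all remote sites for line A and 84.7% for line B. Of the 52 remote sites beyond 1 Mb, 14 carried H3K27me3 within 1 kb for line A (26.9%, 16.8% to 40.3%). For line B it was 9 (17.3%, 9.38% to 29.7%). Of all shared sites 22.5% and 18.3% carried it, and both values lie inside these intervals.

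The members with the most H3K27me3 were few. On chromosome 6 at 10364792, where H3K4me3 scored 91.2 and 63.2, 7 H3K27me3 summits lay within 5 kb in each line, the nearest scoring 2716 and 3347. On chromosome 5 at 53756474 there were 6 in each line, and on chromosome 6 at 5536317 also 6, with 39 and 23 more at 5 to 250 kb, the most of any member in line A. On chromosome 1 at 11271142 there were 5 and 4, the nearest scoring 1290 and 1577, and on chromosome 8 at 89374963 also 5 and 4, scoring 1185 and 992. Only 2 members (0.278%), against 102 other sites (0.684%), lay in or within 1 kb of 1 of the 152 autosomal H3K27me3 regions in which each line had 5 or more summits, a median of 30 bases or less from those of the other line.

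At 9 of the 147 remote sites with both marks in both lines (6.12%) all 4 summits fell within 30 bases, against 69 of 2342 (2.95%) elsewhere. Their H3K27me3 was mostly strong, with median scores of 904 and 417 in lines A and B against 12.2 and 9.20 at the other 138. Among remote sites with H3K27me3 over 100 in both lines, 7 of 9 were of this kind, against 50 of 111 elsewhere. The site on chromosome 2 at 54118758 was not strong, with H3K27me3 scores of 8.48 and 21.2. Their H3K4me3 was mostly weak, with medians of 21.2 and 9.03 against 40.2 and 58.2. On chromosome 7 at 72103737 all 4 summits shared 1 base, with 37 more H3K27me3 summits at 5 to 250 kb in each line, H3K4me3 scores of 36.1 and 8.68 and H3K27me3 scores of 2322 and 2235. On chromosome 18 at 30851289 the H3K4me3 scores were 14.4 and 2.23 and the H3K27me3 scores 387 and 417. The site on chromosome 13 at 1250771 had the highest H3K4me3 scores of all members. Inputs were not analysed here, so signal shared by all libraries at these positions was not tested. Without sites of this kind the share with H3K27me3 within 1 kb was 5.16 points higher at remote than at other sites in line A (1.96 to 8.60) and 5.02 points higher for line B (2.03 to 8.29).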

How the data were processed

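H3K4me3 and H3K27me3 libraries of 2 bESC lines were analysed as 4 deposited summit lists; the 2 inputs were not analysed. Reads were aligned with BWA to UMD3.1 and MACS2 called the peaks, per the submitters' processing notes (tool versions: not given in the sources used here). Deposited peak names show 1 list per library. Each deposited score, a −log10 p or q value from the authors, depends on library depth, which is unknown. Every deposited position is 1 base long, so widths were not available; coordinates count from 1. How the inputs entered peak calling is likewise unstated.

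Sites were found by the rule in the opening paragraph; other shared summits were collapsed within 5 kb in the same way. A site carried H3K27me3 with a summit within 1 kb. Deciles were of the H3K4me3 score over all shared sites, with the nearest line B summit for line B. At 11 members a higher line A summit within 5 kb did not itself meet the rule. Sites named are the 5 most isolated, the 5 highest and 3 lowest in H3K4me3, the 5 richest in H3K27me3 and 3 on each side of the limit; sites with coinciding summits on chromosomes 2, 7 and 18 were added after their values were seen. The members and comparisons were chosen with earlier results of these data known. The finding of sites and their share with H3K27me3 within 1 kb were checked on simulated lists with planted sites. The other steps were not simulated. No p-value across the 2 lines was computed. The tools were matplotlib 3.10.9, scipy 1.17.1, pandas 2.3.3 and numpy 2.4.6 under Python 3.11.15.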

Additional observations from a re-analysis of the deposited data

How the results depend on the processing

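Of 163 recomputed values 137 stayed within the 95% interval (counts: within 1.5 times) of the value reported and 24 moved further. The other 2 changed sign from a reported difference whose interval lay above 0. Differences in the lower deciles, whose reported intervals covered 0, also changed sign in some alternatives and are counted as staying or moving. Coinciding sites, score classes and, for shares, isolation from shared summits alone were alternatives chosen after seeing the data. Remote sites numbered 2537 with a limit of 100 kb and 218 with 500 kb. With 500 kb the line B share was 19.7%, the share in both lines 17.4%, and the line B difference 1.47 points over all scores, -1.27 at equal H3K4me3 score and -5.68 in the lower deciles. With H3K27me3 above the median of its list the shares were 13.9% and 11.2% in lines A and B and 9.44% in both, and the differences 0.34 and 1.38 points over all scores, -0.30 and 0.52 at equal score and 4.07 and 1.53 in the upper deciles. Fewer sites or summits enter these by construction; the cause was not tested. With H3K27me3 within 500 bases the shares were 22.6%, 18.3% and 14.9% (line A, line B, both), within 2 kb 27.5% in line B and 24.2% in both, and within 5 kb 33.6%, 29.2% and 26.1%. With 1 line alone the share in both was 23.6% to 27.9%, as only 1 line had to carry the mark. The difference over all scores was above 0 in 14 of 14 alternatives in each line, and its interval in 12 of 14. At equal H3K4me3 score it was above 0 in 13 of 14 in each line and its interval in 11 of 14, the third exception being a line B summit required within 250 bases (3.44 and 2.47 points).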
